A study of Mus musculus with 3 samples.

Results

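The genes described are 9 regulators of blood stem and progenitor cells, Myb, Meis1, Mecom, Kit, Cd34, Ikzf1, Ikzf2, Myc and Hhex, out of 22367 protein-coding genes of the mouse annotation. They were taken by name as genes that are lowered while megakaryocytes, the cells that release platelets, mature. The files used here hold positions of ChIP-seq reads and no expression values, so this lowering was not measured, and a transcript of Meis1 stands among those that the study lists as raised in mature cells. Binding was read from 3 libraries of mature megakaryocytes (MKMat): FLI1 ChIP, RUNX1 ChIP and input, which is chromatin sequenced without precipitation. All 3 came from wild-type CD1 mouse fetal livers, labelled E15, whose cells were cultured for 5 days, with thrombopoietin according to the methods. Each ChIP library pools DNA of several precipitates. There is 1 library for each antibody and no earlier stage among the files used, so no test between replicates or stages was possible. Intervals are exact 95% intervals that cover counting error only.

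FLI1 belongs to the ETS family of transcription factors, which bind DNA at a GGAA core, and RUNX1 binds a short sequence with the core TGTGGT or TGCGGT together with its partner CBFB. Both are needed for megakaryocytes to mature normally, and both also act in stem and progenitor cells. Of the genes described, Myb, Meis1, Mecom, Ikzf1, Ikzf2, Myc and Hhex encode transcription factors, Kit encodes the receptor of stem cell factor and Cd34 a surface sialomucin used to sort early cells. Several of them are known to be controlled by elements that lie far from their promoters.

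The FLI1 library held 62946422 usable reads, the RUNX1 library 3973856 and the input 21745220, which is a genome-wide mean of 13.46, 0.85 and 4.651 reads for each 400-bp bin. The study lists more RUNX1 reads than this file holds, so limits of depth given here are those of the file and not of the sequencing. A FLI1 bin was called at 20 reads or more and at least 3 times the expected reads, and a RUNX1 bin at 6 reads or more and at least 5 times. Expected reads are the larger of the genome mean and the local input, multiplied by the ratio of library sizes. The labelled cell type was set beside gene lists written with earlier results of these data known, so this is no independent check. FLI1 was called at the starts of 15 of 18 platelet genes and of 0 of 14 genes of other tissues, against 38.9% of all starts (the rule for starts is given with the 9 genes). Among other blood lineages it was called at 2 of 8 erythroid and 3 of 8 granulocyte and monocyte starts. In the RUNX1 library 34.7% of plus-strand reads had a minus-strand read starting within the next 80 to 300 bp, against 17.1% for a stretch of the same width 2 kb further on. These shares were 93.6% and 88.6% for FLI1 and 69.2% and 60.4% for the input, which are deeper. Where both reads come from the same fragment they are not independent, and counting intervals are then too narrow; how often this was so was not tested. The input may have been cut with nuclease and not by sonication, as the sources differ, and its part in the ratios was not tested.

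The strongest FLI1 site is shown for each gene but Kit, which had none within 20 kb. Within 20 kb of the 9 genes, 41 FLI1-called bins formed 34 sites of adjoining bins, and the 101 bp around a site's summit (the base covered by most FLI1 fragments) are printed here from the mm9 reference. Capitals mark ETS sequences on either strand, which are CAGGAAG, its form ending in adenine (CAGGAAA) and the forms that begin with a pair of cytosines (CCGGAAG, or ending in adenine CCGGAAA). They also mark the RUNX sequence TGTGGT and its form TGCGGT. Distances are from the start of the gene, negative upstream.
Hhex +2.92 kb, chr19:37510248-37510348, plus strand: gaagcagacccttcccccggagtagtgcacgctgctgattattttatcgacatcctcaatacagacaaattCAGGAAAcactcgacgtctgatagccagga
Meis1 +48.8 kb, chr11:18870115-18870215, plus strand: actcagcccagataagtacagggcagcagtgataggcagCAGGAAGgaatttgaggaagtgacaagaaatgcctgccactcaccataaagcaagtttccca
Cd34 -10.8 kb, chr1:196754205-196754305, plus strand: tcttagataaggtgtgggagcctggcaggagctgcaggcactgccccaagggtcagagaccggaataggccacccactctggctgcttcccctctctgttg
Ikzf2 +5.24 kb, chr1:69727248-69727348, plus strand: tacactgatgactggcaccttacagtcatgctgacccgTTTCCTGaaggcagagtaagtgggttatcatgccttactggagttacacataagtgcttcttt
Ikzf1 +5.12 kb, chr11:11590079-11590179, plus strand: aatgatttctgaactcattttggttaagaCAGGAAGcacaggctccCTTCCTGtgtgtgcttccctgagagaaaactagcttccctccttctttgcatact
Myc -1.88 kb, chr15:61815013-61815113, plus strand: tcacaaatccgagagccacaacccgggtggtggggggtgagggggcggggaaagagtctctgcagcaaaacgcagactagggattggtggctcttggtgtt
Mecom +451 kb, chr3:29996230-29996330, plus strand: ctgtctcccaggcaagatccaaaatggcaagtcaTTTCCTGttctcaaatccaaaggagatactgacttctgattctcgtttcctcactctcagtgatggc
Myb +7.27 kb, chr10:20873471-20873571, plus strand: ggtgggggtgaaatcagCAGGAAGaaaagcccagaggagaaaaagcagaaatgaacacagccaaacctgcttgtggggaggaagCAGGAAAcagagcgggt

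Of these sites, the Ikzf1 site holds a pair of CAGGAAG sequences that face each other, the Myb site holds CAGGAAG and CAGGAAA on the same strand, and the Hhex, Meis1, Ikzf2 and Mecom sites hold 1 ETS sequence each. The Cd34 and Myc windows hold a GGAA core but none of the 4 ETS sequences. No RUNX sequence falls in these 8 windows.

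At the gene starts (2 kb on either side of the 5′ end of the gene record), FLI1 was called above the depth-scaled input at 5 of the 9 genes. A start was called where the ratio was at least 1.5 and its interval lay above 1, which held for 38.9% of 21877 starts with input reads. The share of the 9 genes (55.6%) was above that background, and their median ratio was 1.695 against 1.263 over all genes. Within 1 kb of the starts, 4 of the 9 were called against 42.9% of all starts, a share near the background, and the lost call was that of Hhex (1.365, 0.8378 to 2.321). Meis1, a homeobox cofactor of HOX proteins, had the highest ratio, with 290 FLI1 reads, 30 input reads and a ratio of 3.339 (2.289 to 5.04). Ikzf2, which encodes the zinc finger protein Helios, had 222 FLI1 and 29 input reads (2.645, 1.791 to 4.041). Myc, a regulator of growth and proliferation, had 284 and 38 reads (2.582, 1.836 to 3.724). Meis1, Ikzf2 and Myc lay above the middle 50% of all genes in this window, and Myc fell to 1.612 (1.057 to 2.542) within 1 kb. Myb, which sustains the proliferation of progenitors, had 130 and 23 reads (1.953, 1.247 to 3.189), and Hhex, a homeobox gene of early blood and endothelium, 211 and 43 (1.695, 1.216 to 2.411).

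The other 4 starts were not called. Ikzf1, which encodes the zinc finger protein Ikaros, had 165 FLI1 and 42 input reads and a ratio of 1.357 (0.9621 to 1.953), which was 0.6671 (0.4188 to 1.084) within 1 kb. Kit had 132 and 38 reads (1.2, 0.8309 to 1.77). Mecom, whose products include EVI1, had 96 and 30 reads (1.105, 0.727 to 1.726). Cd34 had the lowest ratio with 139 and 49 reads (0.98, 0.7029 to 1.386). Each gene's interval overlapped that of its neighbour in this order. The lower bound for Meis1 lay above the upper bounds for Ikzf1, Kit, Mecom and Cd34 in the 2-kb window. Within 1 kb it lay above those for Ikzf1, Kit and Cd34 but not for Mecom, whose ratio was then 1.865 (0.9405 to 4.109).

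**Figure D1:**
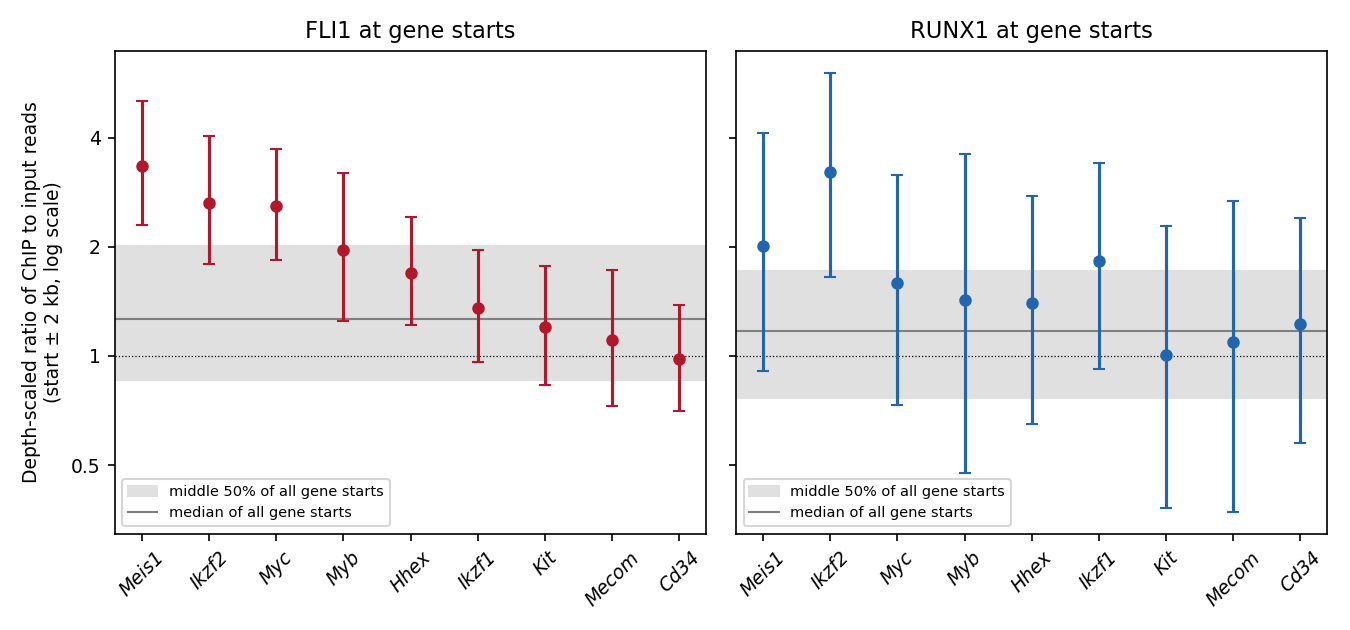
Depth-scaled ratio of FLI1 (left) and RUNX1 (right) reads to input reads within 2 kb of each gene start, on a log scale, with exact 95% counting intervals; the band and line give the middle 50% and the median of all gene starts. FLI1 ratios run from 3.339 at Meis1 to 0.98 at Cd34, and RUNX1 lies wholly above 1 only at Ikzf2.

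RUNX1 was called at the start of 1 of the 9 genes (11.1%), against a background of 14.8%. At Ikzf2 the 17 RUNX1 reads over 29 input reads gave a ratio of 3.208 (1.654 to 6.036), but within 1 kb of the start the ratio was 1.728 (0.5648 to 4.501) and the call was lost. Meis1 had 11 RUNX1 reads (2.006, 0.9072 to 4.119), Ikzf1 14 reads (1.824, 0.92 to 3.407; within 1 kb 0.7548, 0.1928 to 2.149) and Myc 11 reads (1.584, 0.7303 to 3.162). Myb had 6 reads (1.427, 0.4755 to 3.606), Hhex 11 (1.4, 0.651 to 2.76) and Cd34 11 (1.228, 0.576 to 2.395). Mecom had 6 reads (1.094, 0.3724 to 2.672) and Kit 7 (1.008, 0.3798 to 2.285). With 6 to 17 reads at a start, the intervals of these 8 genes each included both 1 and 2, so neither value could be told from the other there.

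Hhex, Mecom and Ikzf1 have further protein-coding transcript starts inside the gene record at which more reads were found. The starts given here were chosen for their high ratios. At Hhex-002, which begins 3852 bp into the gene, 870 FLI1 reads over 36 input reads gave a ratio of 8.349 (5.983 to 12), and 18 RUNX1 reads gave 2.736 (1.463 to 4.946). No protein-coding transcript of Mecom begins at the 5′ end of its gene record, which belongs to another transcript. At Mecom-005, 38494 bp into the record, the FLI1 ratio was 1.698 (1.175 to 2.517) from 172 reads and the RUNX1 ratio 2.189 (1.088 to 4.173) from 14 reads. At Ikzf1-003, 1442 bp into the gene, the RUNX1 ratio was 2.565 (1.291 to 4.876) from 15 reads, and at Ikzf1-206, 5259 bp in, the FLI1 ratio was 1.96 (1.413 to 2.778) from 244 reads. Of 8 Ikzf1 starts, 5 were called for FLI1 and 4 for RUNX1, and of 12 Mecom starts 4 and 4, with FLI1 ratios from 0.9623 at Ikzf1 and 0.9095 at Mecom upwards. Many of these starts lie close together, so their windows overlap, share reads and are not separate observations. The 4 Ikzf1 starts called for RUNX1 lay 922 to 1442 bp into the gene and held 15 RUNX1 reads each. When each gene was measured at its transcript start with the highest FLI1 ratio, 7 of the 9 genes were called for FLI1 and 3 for RUNX1. Over all genes these shares were then 41.6% and 15.9%. A gene with more starts has more chances to be called this way, and number of starts was not matched. Ikzf1, with 8 starts, and Mecom, with 12, were called for FLI1 here but not at their gene starts. The share of 7 in 9 is therefore not shown to exceed that of all genes.

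Over the gene bodies and 20 kb on either side, FLI1-called bins were found at 8 of the 9 genes, against 61.8% of all genes. Longer regions hold more bins that can be called, and length was not matched in this comparison. The FLI1-called bins made up 41 of 3727 bins, or 1.1%, where 0.437% of all bins of the genome and 0.7% of bins in or within 20 kb of any protein-coding gene were called. The bins were unevenly shared. Meis1 held 13 and Hhex 8, Cd34 held 7, Ikzf1 and Ikzf2 held 4 each, Mecom 3, Myb 1, Myc 1 and Kit 0. Per 100 kb this was 16.7 bins at Hhex, 11.2 at Cd34, 7.29 at Meis1, 3.13 at Ikzf1, 2.21 at Myc, 2.05 at Ikzf2, 1.32 at Myb and 0.471 at Mecom, around a median of 1.7 for all genes. Meis1, which held 13 of the 41 bins, is the gene with a transcript that the study lists as raised. The share of called bins without Meis1 or Hhex was not computed. Of the 41 bins, 10 lay within 2 kb of a start of the same gene, 20 in introns and 11 between genes. Thus 24.4% lay near a protein-coding start, compared with 49.2% of the FLI1-called bins in and around all genes. Long regions have a smaller share of their bins near a start, and length was not matched here either.

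**Figure D2:**
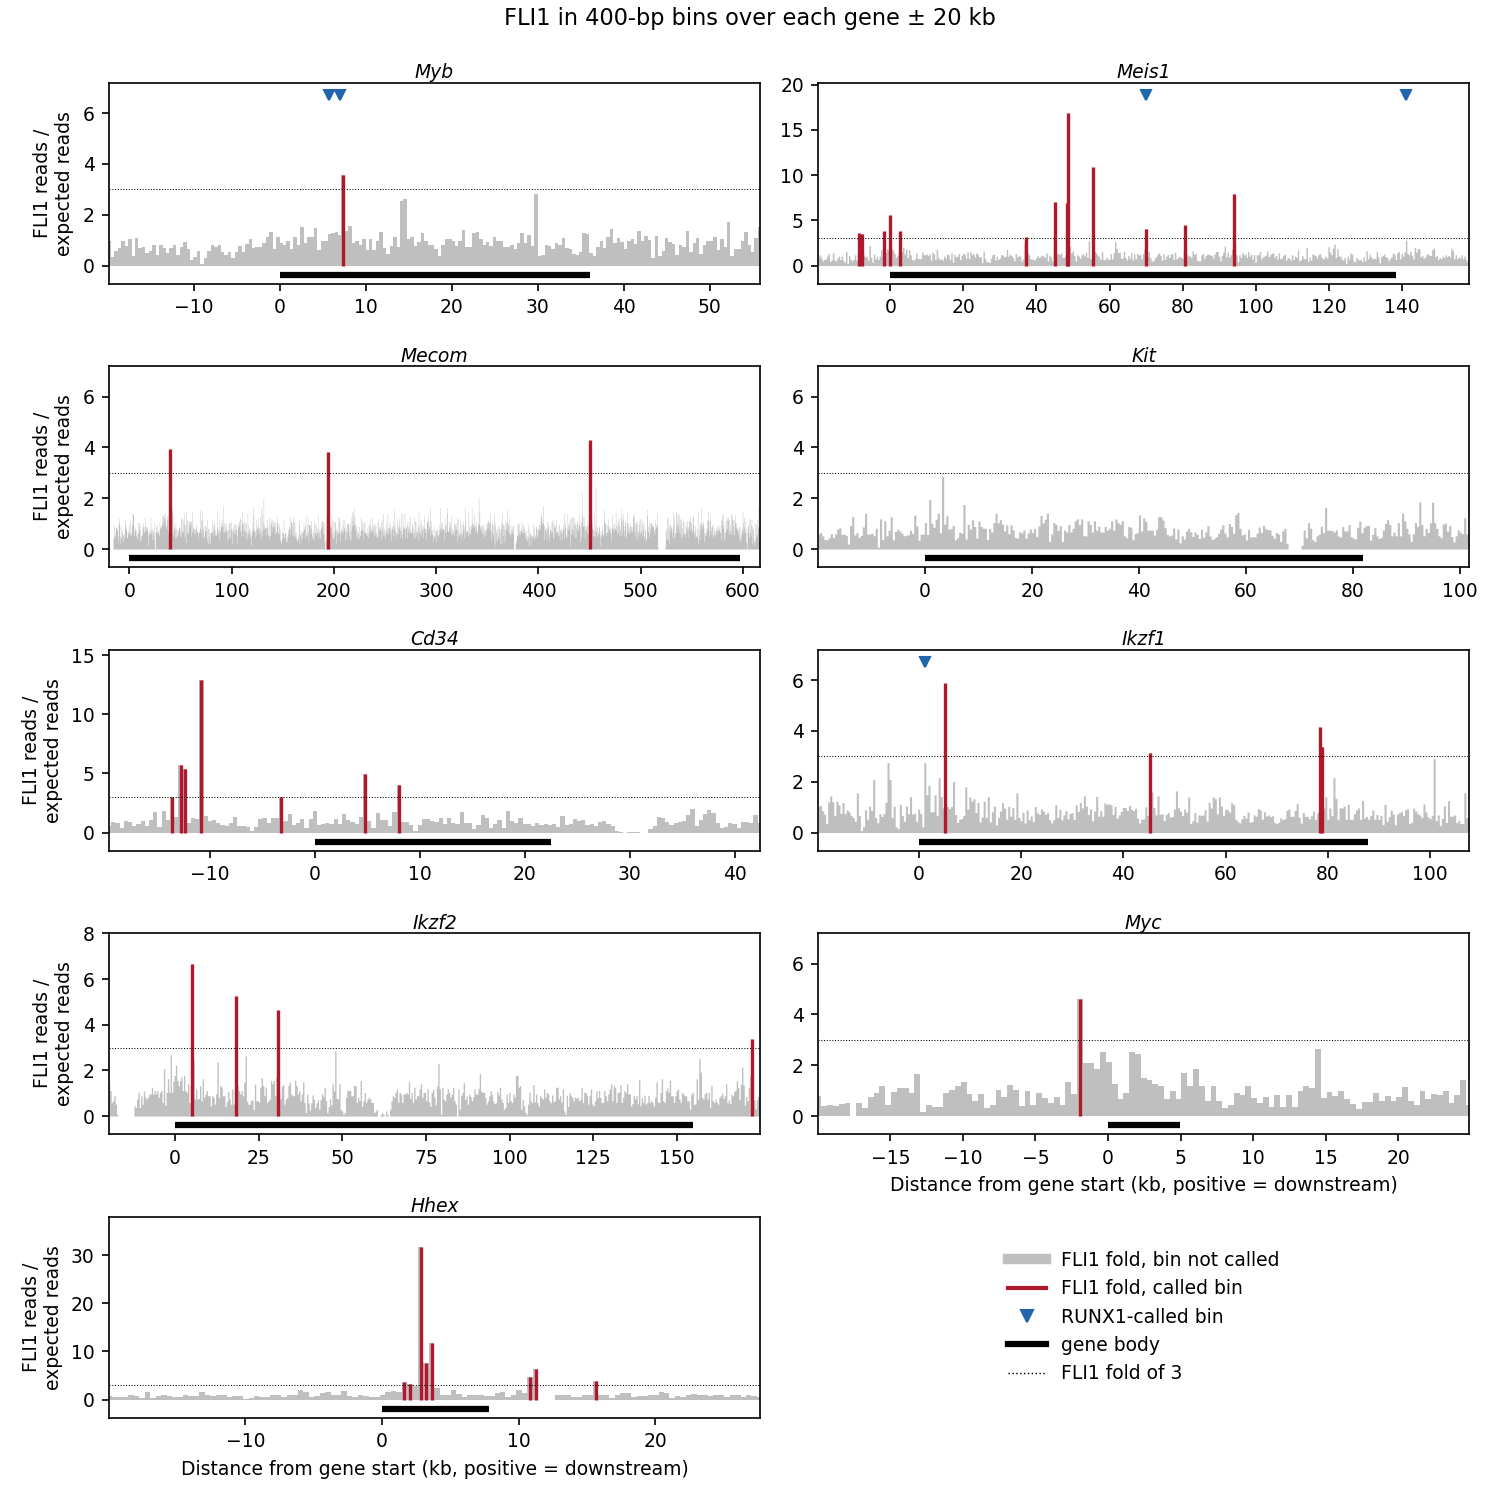
FLI1 reads over expected reads in 400-bp bins along each gene and 20 kb on either side, by distance from the gene start in kb; called bins are coloured, triangles mark RUNX1-called bins and the black bar is the gene body (vertical scales differ). Hhex and Meis1 hold the highest bins at 31.7 and 16.9 times the expected reads, and no bin of Kit reaches 3.

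Hhex held the strongest FLI1 site of the set. Its 3 adjoining bins carried 688 FLI1 reads and 9 input reads (ratio 26.4, 13.8 to 58.0), and the highest bin, 2.92 kb downstream of the start and within 2 kb of the Hhex-002 start, had 427 reads at 31.7 times the expected reads. The third bin of this site, 3.76 kb downstream, reached 11.7 times with 158 reads. Further sites lay 1.83 kb (92 reads), 11.0 kb (148 reads) and 15.6 kb (52 reads) downstream of the start, the latter sites beyond the end of the gene.

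Meis1 held 12 FLI1 sites, spread from 8.38 kb upstream of the start to an intron 93.8 kb downstream. The strongest was intronic, 48.8 kb downstream, with 322 FLI1 and 14 input reads over 2 bins and a highest fold of 16.9. The next were 55.6 kb downstream with 178 reads (10.9-fold) and 93.8 kb downstream with 145 reads (7.91-fold). A site at the promoter itself, 18 bp upstream of the start, had 75 reads (5.57-fold). Of the 12 sites, only that 69.9 kb downstream was also called for RUNX1, with 55 FLI1 and 6 RUNX1 reads. The study, which lists more RUNX1 reads, places its nearest RUNX1 site at about the distance of the strongest FLI1 site here, without giving the side. A Meis1 site with no RUNX1 call in this file is therefore not shown to lack RUNX1.

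At Cd34 the start had no FLI1 excess, and the called bins lay on both sides of it. The strongest site was intergenic, 10.8 kb upstream, with 201 FLI1 and 8 input reads (12.9-fold). A second site 12.6 kb upstream carried 173 reads over 2 bins (5.7-fold), and an intronic bin 4.86 kb downstream carried 70 reads (4.99-fold). Cd34 therefore had the lowest ratio of the 9 genes at the start in the 2-kb window and the second highest density of called bins. Its interval there overlapped those of other genes. Within 1 kb the Cd34 ratio was 0.8458 (0.542 to 1.351) and that of Ikzf1 was lower at 0.6671 (0.4188 to 1.084).

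The Ikaros family genes carried weaker sites, mostly in introns. Ikzf1 had its highest bin 5.12 kb downstream of the start, close to the Ikzf1-206 start, with 79 FLI1 reads (5.87-fold). A site of 2 bins 78.6 kb downstream had 138 reads (4.15-fold), and a bin 45.4 kb downstream had 56 (3.14-fold). Ikzf2 had intronic bins 5.24 kb (90 reads, 6.68-fold), 18.3 kb (71 reads, 5.27-fold) and 30.8 kb (76 reads, 4.63-fold) downstream, and a bin past the end of the gene with 62 reads (3.38-fold). The excess of FLI1 and RUNX1 at the Ikzf2 start came without a called bin within 2 kb of it.

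Myc, Myb and Mecom each held few FLI1-called bins. At Myc the called bin lay 1.88 kb upstream of the start, with 62 FLI1 and 3 input reads (4.6-fold). At Myb it lay in an intron 7.27 kb downstream, with 72 and 8 reads (3.55-fold). Mecom, whose record spans 596.7 kb, had a bin 39.5 kb downstream with 53 reads (3.94-fold), about 1 kb inside its first protein-coding transcripts, and intronic bins 194 kb (55 reads, 3.8-fold) and 451 kb (59 reads, 4.27-fold) downstream.

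Kit was the only gene of the 9 with no FLI1-called bin among its 305 bins, though a bin just past its downstream flank was called (given with the distal bins). Its highest bin, in an intron 3.38 kb downstream of the start, had 40 FLI1 and 6 input reads (2.855-fold), just under the limit of 3. Summed over gene body and flanks, FLI1 at Kit was below the input with a ratio of 0.886 (0.8319 to 0.9439), and so was RUNX1 with 0.8357 (0.7187 to 0.9676). Over the same kind of region the FLI1 ratio was 1.734 (1.574 to 1.914) at Hhex, 1.553 (1.475 to 1.637) at Meis1 and 1.353 (1.24 to 1.477) at Cd34. It was 1.244 (1.18 to 1.313) at Ikzf2, 1.15 (1.036 to 1.278) at Myc and 1.071 (0.9894 to 1.161) at Myb, and near 1 at Mecom (1.005, 0.976 to 1.034) and Ikzf1 (1.003, 0.9465 to 1.063). The RUNX1 ratio was also below the input at Ikzf1 (0.7903, 0.6839 to 0.9097). It was above the input at Meis1 (1.363, 1.224 to 1.514) and Ikzf2 (1.257, 1.126 to 1.401), and the RUNX1 intervals of the remaining genes included 1.

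RUNX1-called bins in these regions were few and near the reporting limit. There were 5 among 3727 bins, or 0.134%, where 0.0822% of all bins and 0.114% of bins in or near protein-coding genes were called. They fell at 3 of the 9 genes, against 22.5% of all genes, again without matching for length. Myb held bins 5.72 and 6.94 kb downstream with 7 and 6 RUNX1 reads, the latter adjoining its FLI1-called bin, which held 0. Meis1 held bins with RUNX1 summits 69.8 and 141 kb downstream and 6 reads each, and Ikzf1 a bin 1.21 kb downstream with 7 reads and 0 input reads. A limit of 7 reads and 10-fold left 0 of these 5 bins, and counting the plus strand alone left 1, at Meis1, where 0.00426% and 0.00515% of all bins were still called. When FLI1 was thinned to the RUNX1 depth and called by the RUNX1 rule, 21 bins were called at the 9 genes, with a background of 0.185%. These were 8 at Meis1, 3 each at Mecom, Cd34 and Hhex and 2 each at Ikzf1 and Ikzf2, so that 21 FLI1 and 5 RUNX1 bins stood side by side at an equal number of reads, though not necessarily of fragments.

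Only 1 bin of the 9 genes, the intronic bin of Meis1 described above, was called for both factors, which is 1 of 5 RUNX1-called bins and 1 of 41 FLI1-called bins. Across the genome, 29.1% of RUNX1-called bins were also FLI1-called, and 5.49% of FLI1-called bins were also RUNX1-called. Since single bins hold so few RUNX1 reads, these were summed over the FLI1-called bins, which were found without them. The 41 bins held 73 RUNX1 and 200 input reads, a ratio of 1.997 (1.506 to 2.624), whereas the other bins of the 9 genes had 1.04 (0.9989 to 1.083). The same sum over all FLI1-called bins of the genome gave 2.487 (2.463 to 2.511), and the rest of the genome 0.9907. Hhex had the highest ratio, 4.282 (2.178 to 8.294), from 18 RUNX1 and 23 input reads, and Meis1 had 1.85 (1.113 to 2.975) from 24 and 71 reads. The intervals of Cd34 (1.824, 0.8641 to 3.587), Ikzf2 (2.016, 0.7162 to 5.008), Ikzf1 (1.563, 0.6158 to 3.521) and Mecom (1.368, 0.2477 to 5.069) included 1. So did those of Myc, with 1 RUNX1 read (1.824, 0.03475 to 22.72), and Myb, with 0 RUNX1 and 8 input reads (0 to 3.206). Without Hhex, a choice made after the values were seen, the remaining 33 bins gave 1.7 (1.23 to 2.31).

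**Figure D3:**
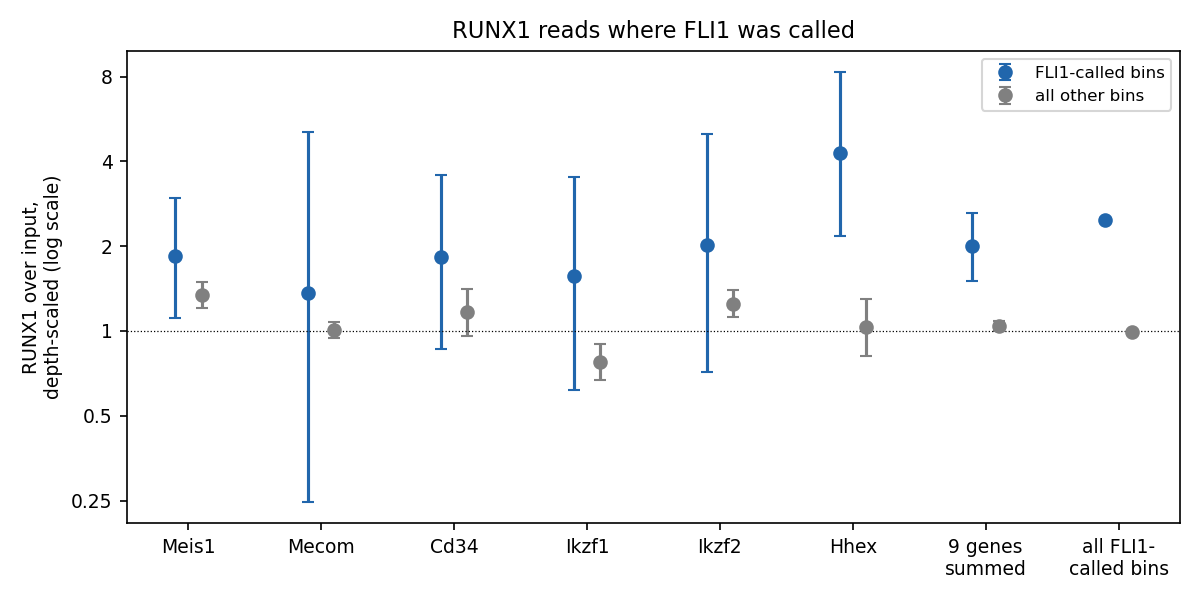
Depth-scaled ratio of RUNX1 to input reads, log scale, in FLI1-called bins (blue) and all other bins (grey) of each gene with more than 1 RUNX1 read there, of the 9 genes summed and of the whole genome, with exact 95% counting intervals. The summed ratio is 1.997 in FLI1-called bins and 1.04 in the others, and Hhex stands highest at 4.282.

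FLI1-called bins of the 9 genes were rich in ETS sequences. Any of the 4 ETS sequences occurred in 30 of 41 bins, or 73.2% (57.1 to 85.8%), compared with 26.2% of their other bins, 65.7% of all FLI1-called bins and 25% of all bins of this length. Of the 16 bins at 5-fold or more, 87.5% held an ETS sequence. RUNX sequences occurred in 10 of the 41 bins, or 24.4% (12.4 to 40.3%), close to the 27.5% of all bins, while 38.9% of all FLI1-called bins held them. None of the 5 RUNX1-called bins held a RUNX sequence, and an interval of 0 to 52.2% goes with so small a number. Among all RUNX1-called bins the share was 37.2%.

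Elements far from the promoter were examined in the 100 kb beyond the flanks on each side. There the 9 genes held 39 FLI1-called bins, a mean of 1.56 upstream and 2.78 downstream, against means of 2.31 and 2.34 for all genes. RUNX1-called bins averaged 0.333 upstream and 0.556 downstream, against 0.33 and 0.333 for all genes, and 6 of the 39 FLI1-called bins were also RUNX1-called, where 5.49% of all FLI1-called bins of the genome were; this difference was not tested. Shown here are an upstream site of Myb, 2 sites of Kit and a site of Myc beyond these 100 kb, chosen after their values were seen because few or no bins were called within 20 kb of these genes.
Myb -35.7 kb, chr10:20916471-20916571, plus strand: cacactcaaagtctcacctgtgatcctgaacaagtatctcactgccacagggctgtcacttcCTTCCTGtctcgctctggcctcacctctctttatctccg
Kit -109 kb, chr5:75861848-75861948, plus strand: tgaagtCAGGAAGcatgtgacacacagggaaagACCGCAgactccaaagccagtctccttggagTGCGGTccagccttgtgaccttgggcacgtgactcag
Kit +156 kb, chr5:76126794-76126894, plus strand: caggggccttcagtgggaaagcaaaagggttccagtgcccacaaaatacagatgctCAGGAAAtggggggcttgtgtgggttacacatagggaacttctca
Myc +1660 kb, chr15:63479999-63480099, plus strand: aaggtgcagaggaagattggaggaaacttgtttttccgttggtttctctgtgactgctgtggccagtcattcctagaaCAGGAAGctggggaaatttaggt

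Kit, which had no called bin within 20 kb, had 1 upstream and 4 downstream of that. The bin 109 kb upstream carried 50 FLI1 reads (3.57-fold) and 7 RUNX1 reads (7.91-fold) over 4 input reads and was called for both. Its printed window, centred on the FLI1 summit, holds CAGGAAG and 2 TGCGGT sequences on opposite strands. The RUNX1 summit of this bin, at position 75861697, lay outside that window. Downstream, the bins 156 kb from the start formed a site with 245 FLI1, 3 RUNX1 and 7 input reads (13-fold), and bins 102 and 187 kb downstream had 56 and 100 FLI1 reads. The bin 102 kb from the start (4.16-fold) began at position 76073201, just past the 20-kb flank, which ended at 76072747. That no bin was called within 20 kb of Kit thus depends on the width of the flank.

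Myb had 3 intergenic FLI1-called bins upstream, in an interval known for enhancers of Myb in red cell precursors. They lay 25.9, 35.7 and 67.7 kb from the start with 67, 75 and 57 FLI1 reads (4.78-, 4.32- and 4.23-fold) and 1, 2 and 5 RUNX1 reads. Downstream, 5 bins lay in introns of the neighbouring gene Ahi1. The strongest of these, 106 kb from the Myb start, had 126 FLI1, 10 RUNX1 and 3 input reads (7.45- and 9.36-fold) and was called for both. Ahi1 stands among the transcripts that the study lists as raised in mature cells.

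Myc is known to be controlled in blood cells by a group of enhancers far downstream, so it was followed over 2000 kb. In this span 18 of 5000 bins were FLI1-called, or 0.36%, which is below the 0.437% of the genome. Of these, 8 lay between 1500 and 1700 kb beyond the gene, where 1.6% of 500 bins were called; these limits were chosen after the values were seen. The strongest site, 1660 kb from the start, carried 523 FLI1, 14 RUNX1 and 9 input reads over 2 bins, with ratios of 20.1 (10.5 to 44.1) for FLI1 and 8.51 (3.43 to 22.3) for RUNX1. This exceeded the promoter bin of Myc, with 62 FLI1 and 1 RUNX1 reads. Nearer to the gene, a bin 71.2 kb downstream had 123 FLI1 and 6 RUNX1 reads and was called for both. Bins were placed by protein-coding genes only. Noncoding genes such as Pvt1, which the study lists as raised in mature cells, were not looked for on this span. Between 900 and 1500 kb no FLI1 bin was called.

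**Figure D4:**
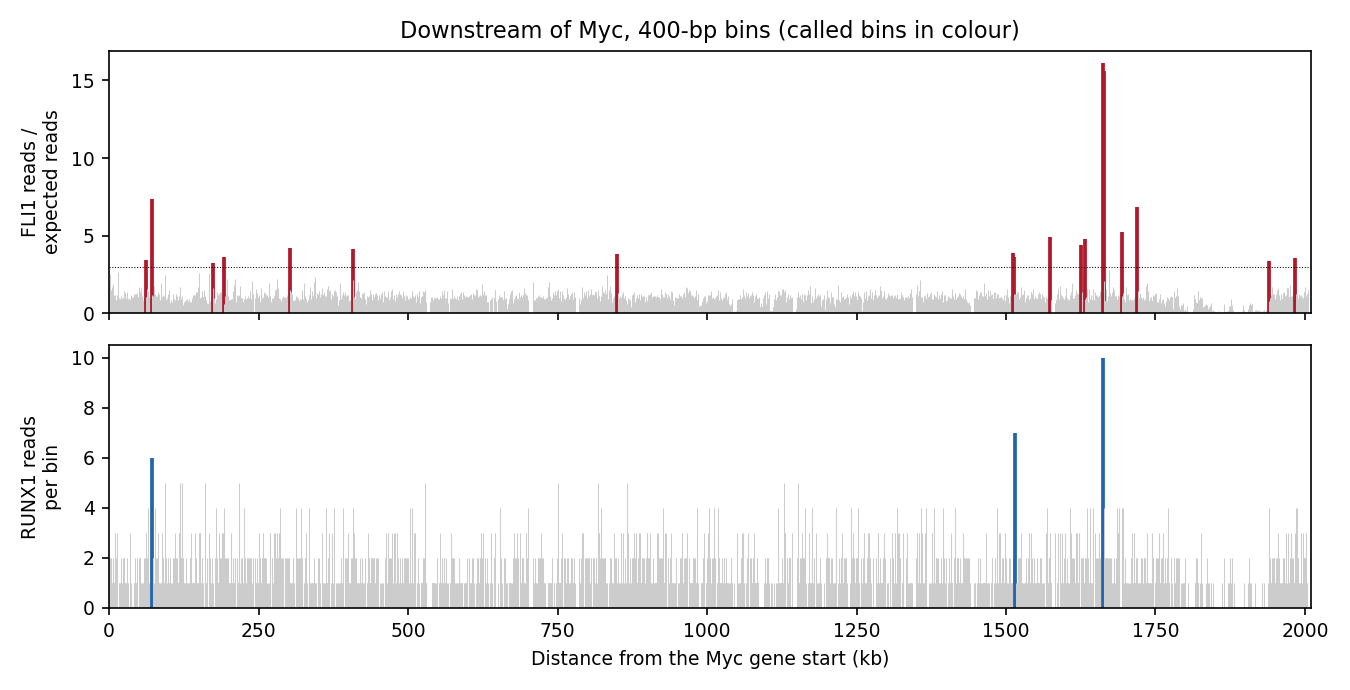
FLI1 reads over expected reads (top) and RUNX1 reads (bottom) in 400-bp bins by distance downstream of the Myc gene start in kb, called bins in colour. The highest FLI1 and RUNX1 bins fall together 1660 kb downstream.

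Among the other genes, the Ikzf1 surroundings held the strongest distal bins. A bin 111 kb upstream had 195 FLI1 and 5 RUNX1 reads (14.5-fold for FLI1), and a bin 152 kb downstream, in an intron of Ddc, had 199 FLI1 and 18 RUNX1 reads (10.9- and 15.6-fold) and was called for both. Ddc also stands among the transcripts that the study lists as raised in mature cells. Hhex had a bin 61.2 kb downstream with 164 FLI1 and 6 RUNX1 reads, and Cd34 a site 56.6 kb downstream with 273 FLI1 and 2 RUNX1 reads. The distal bins upstream of Mecom lay at the promoters of Mynn and Arpm1, and the 2 adjoining bins upstream of Hhex at that of Kif11. A bin downstream of Ikzf1 lay at the promoter of Fignl1. Ikzf2 had 2 weak bins and Meis1 had 0. Which gene a distal bin acts on was not tested.

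The 9 genes were set beside other lists. Of 37 further stem and progenitor regulators, 21 (56.8%) were called for FLI1 at the start, with a median ratio of 1.825, and 13 (35.1%) for RUNX1, where 38.9% and 14.8% of all genes were. The highest FLI1 ratios in that list were at Fli1 itself (8.008), Lyl1 (7.446) and Hoxa9 (4.491), and the lowest at Ly6a (0.475) and Ikzf4 (0.8232). The list had a median of 3.65 FLI1-called bins per 100 kb, against 2.21 for the 9 genes, of which 5 were called for FLI1 and 1 for RUNX1 at the start. Platelet genes, whose expression was not measured here either, were called for FLI1 at 15 of 18 starts, with a median ratio of 2.267 and a median of 10.1 called bins per 100 kb against 2.21 for the 9 genes. Hhex and Cd34 lay above that median of the platelet genes and the other 7 below it. For FLI1, 2 of 8 erythroid genes were called, 3 of 8 granulocyte and monocyte genes and 0 of 14 genes of other tissues. For RUNX1, 4 of 18 platelet genes were called and 0 in each of these other lists. These counts describe lists of different size and were not tested against each other.

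**Figure D5:**
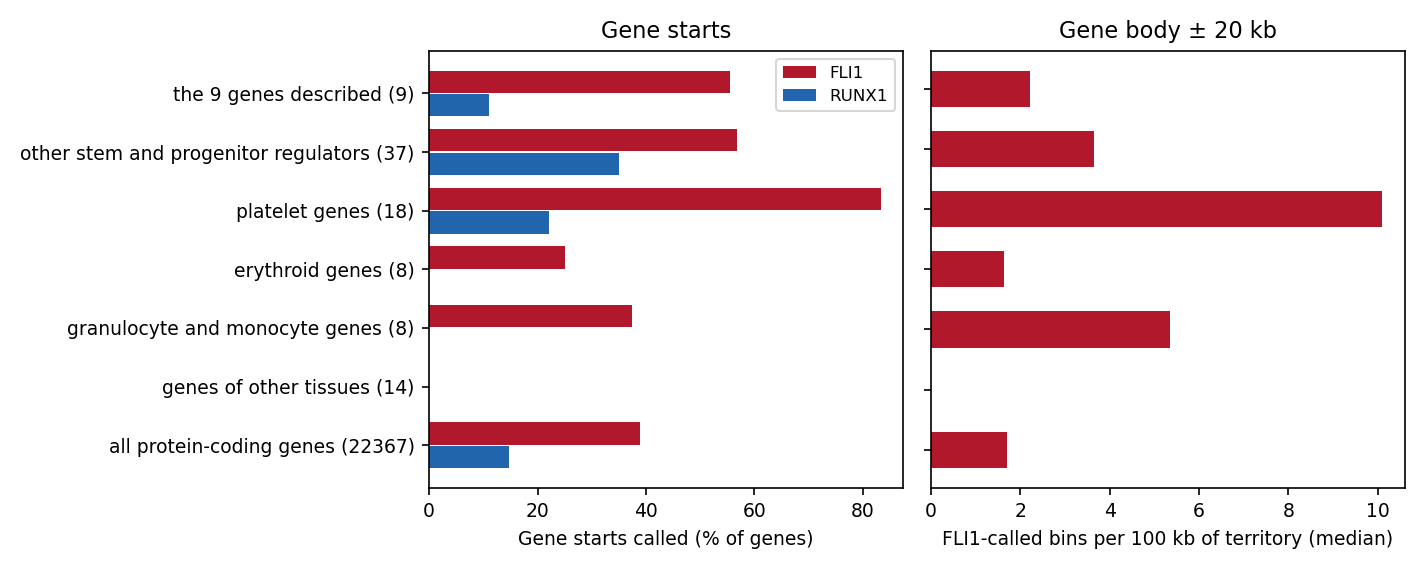
Share of gene starts called for FLI1 and RUNX1 (left, % of genes) and median number of FLI1-called 400-bp bins per 100 kb of gene body and flanks (right) for the 9 genes, 5 other lists and all genes, with the number of genes in parentheses. FLI1 was called at 55.6% of the 9 genes, 83.3% of platelet genes and 38.9% of all genes.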

How the data were processed

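The authors mapped reads to mm9 and deposited, for each library, the chromosome, start, end and strand of the reads that they kept, which the methods describe as unique and non-redundant; these values are positions and no normalized unit. The submitters' processing notes name Bowtie, MACS 1.4 and SICER 1.1, and the deposited files hold 50-bp reads for FLI1 and RUNX1 and 34-bp reads for the input. No position repeated on a strand in the ChIP files. In the input 3.244% of reads repeated a position and were left out, as was chromosome M. Labels and methods differ on the embryonic day. The methods tie the input to micrococcal nuclease and the factor ChIPs to sonication, while the labels give sonication, so a ratio to input may compare chromatin cut in different ways.

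Each read was moved 75 bp towards its 3′ end and counted (Python 3.11.15, numpy 2.4.6, scipy 1.17.1, pysam 0.24.0, samtools 1.23.1) within 2 kb of gene starts and in 400-bp bins over genes of GENCODE M1 with 20 kb on either side. No read lay past the end of a reference chromosome. Ratios to input were scaled by library depth, and intervals of ratios and shares are exact (conditional binomial and Clopper-Pearson). Expected reads of a bin are the largest of the genome mean and the scaled input over 3, 13 and 25 bins. Starts of 490 genes without input reads gave no ratio. Of 38 further regulators listed, 37 were matched by name; where a name had several records the longest was used. The counting was tested on simulated reads. There were no replicates, so no p-value is given. Summits were placed where fragments of 150 bp overlapped most.

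The 9 genes, the lists and the rules were chosen with earlier results of these data known. Named in the text are the 9 genes, and in each the 3 FLI1-called bins of highest fold (or its highest bin) and the 2 RUNX1-called bins of highest fold. Where no RUNX1 bin was called within 20 kb, the highest one is not named. Also named are the 3 highest and 2 lowest FLI1 ratios of the regulator list, and genes whose starts lie within 2 kb of a named bin. Other bins and Ahi1, Ddc and Pvt1 were named after their values were seen. Alternatives changed the window, start, read shift, scaling, input, call limits, strand and depth.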

Additional observations from a re-analysis of the deposited data

How the results depend on the processing

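FLI1 was called at 5 starts in the analysis reported and at 4 to 7 under 6 other choices (4 against a background of 42.9% in a window of 1 kb, 7 against 41.6% at the transcript start with the highest FLI1 ratio and 4 against 25.7% in the thinned library), with 3 (background 25.1%) when a ratio of at least 2 was asked for. RUNX1 was called at 1 start, at 0 (background 16.5%) in a window of 1 kb and at 3 (15.9%) at the transcript start with the highest FLI1 ratio. For both factors, counts at that transcript start favour genes with many starts. The 41 FLI1-called bins numbered 46 without the input (0.556% of all bins, against 0.437%), 41 or 42 with input repeats kept or bins or reads moved (0.433 to 0.438%), 54 with flanks of 50 kb, 16 at 5-fold (0.184% of all bins) and 21 in the library thinned to the RUNX1 depth (0.185%). The 5 RUNX1-called bins became 0 at 7 reads and 10-fold (0.00426% of all bins), 14 at 4 reads and 5-fold (0.251%) and 1 on the plus strand alone (0.00515%), so the count of RUNX1 bins rests on the limit chosen. The RUNX1 ratio in FLI1-called bins ranged from 1.7 to 2.025 and stayed above 1 in the 5 alternatives run. An ETS sequence was found in 87.5% of bins at 5-fold, and the shorter GGAA core within 50 bp of the summit in 92.68% of the called bins, against 65.1% of windows of that size in the other bins. Among single genes, a window of 1 kb gave FLI1 ratios of 0.6671 (0.4188 to 1.084) at Ikzf1, 1.865 (0.9405 to 4.109) at Mecom and 1.612 (1.057 to 2.542) at Myc. It gave a RUNX1 ratio of 0.7548 (0.1928 to 2.149) at Ikzf1, and thinning FLI1 gave 0.5584 (0.1736 to 1.394) at Cd34. The intervals for FLI1 at Mecom and Cd34 and for RUNX1 at Ikzf1 included the ratios of the analysis reported, and those for FLI1 at Ikzf1 and Myc did not. The cause was not tested. No paired analysis was possible because each antibody has 1 library, and for the same reason no library could be left out. The number of reads in the RUNX1 file limits single bins and starts to large excesses.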
